A study of Mus musculus with 20 samples.

Results

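The 9 homeostatic microglia genes Cx3cr1, P2ry12, Tmem119, Csf1r, Aif1, Trem2, Tyrobp, Siglech and Cd68 were followed in the adult hippocampus after gestational exposure to nPM, the nanosized particulate matter of urban air. Members were chosen by symbol alone, and 9 of the 48709 genes in the deposited table matched, each to a single gene ID. All 9 passed the filter on low counts, as did 19797 genes in all. Total RNA of the right hippocampus was sequenced from 20 C57BL/6 mice, with 5 samples of each sex from nPM and from control litters. Dams of the nPM groups inhaled re-aerosolized nPM for 5 h on 3 days per week from gestational day 2 until birth, and dams of the controls inhaled filtered air in parallel. The concentration was 300 per cubic meter, in μg by the study's methods and in mg by the labels. Exposure ended at birth, and the offspring had gone through behavioral and glucose tests before tissue collection. Females were 17.71 to 18.29 weeks old and males 18.57 to 19.14 weeks. The study's methods describe injections of EdU, a label of dividing cells, for the male offspring. Offspring came from 5 litters per exposure group, and since each exposure group has 10 samples that the labels do not tie to litters, some share a litter and the p-values may be too small.

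Microglia are the resident macrophages of the brain, and in the undisturbed brain they survey their surroundings with moving processes. Their homeostatic state is kept up by signals from neurons and other brain cells through surface receptors, such as fractalkine acting on Cx3cr1, extracellular nucleotides on P2ry12, and Csf1 and Il34 on Csf1r. Several of the 9 genes, among them Csf1r, Aif1, Trem2, Tyrobp and Cd68, are also used by macrophages outside the brain tissue proper, whereas Tmem119, P2ry12 and Siglech are known as more selective for microglia.

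Counts on genes were between 19092067 and 38663408 per sample (median 29468930), and a count of 3, the most that a listed 0 allows, was at most 0.157 CPM, the counts scaled to library size. Xist was between 15466 and 38047 counts in females and at most 59 in males. The 4 Y-linked marker genes together, Ddx3y, Uty, Kdm5d and Eif2s3y, were at 0 to 3 counts in control females, 4 to 20 in nPM females and 7875 to 11883 in males. One library stood apart for the 9 genes: nPM female 4 had the lowest total count, the highest share of mitochondrial ribosomal RNA (13.3%), the lowest sum of the 9 genes (135 CPM) and the lowest sum of 24 general myeloid genes (254 CPM) of the 20 samples. In depth and in this mitochondrial share nPM female 2 came next to it, with 21220354 counts and 13.2%, but its sum of the 9 genes was 179 CPM. The highest sum of the 9 genes, 232 CPM, was in nPM female 3 of the same group.

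The receptors for growth factor, nucleotide and chemokine signals were among the most abundant members. Levels between genes are given as RPKM, reads per kilobase of gene length and scaled to the reads counted per library. Csf1r, the receptor on whose signal microglia depend for survival, lies on chromosome 18 (mm10, 61105572 to 61132149, plus strand) and had a mean of 15.5 ± 1.94 RPKM (SD, n = 20). P2ry12, the ADP receptor through which microglial processes move towards injury, lies on chromosome 3 (59216272 to 59262871, minus strand) and had 14.8 ± 2.77 RPKM. Cx3cr1, the fractalkine receptor, lies on chromosome 9 (119901616 to 120068283, minus strand) and had 8.87 ± 1.60 RPKM.

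The signaling adaptor of the group stood between P2ry12 and Cx3cr1, and its partner receptors far lower. Tyrobp, which carries the intracellular signal of Trem2 and Siglech, lies on chromosome 7 (30413760 to 30417585, plus strand) and had 12.1 ± 2.19 RPKM. Siglech, a sialic acid binding lectin on the same chromosome (55768178 to 55778925, plus strand), had 3.56 ± 0.539 RPKM. Trem2, a receptor for lipids and lipoproteins on chromosome 17 (48346401 to 48354147, plus strand), had the lowest level of the 9 genes, 1.32 ± 0.248 RPKM over a gene length of 4946 bases. The deposited length of Tyrobp was 667 bases, so that the mean count of Trem2, 200.2, was close to that of Tyrobp, 249, while their levels per length were far apart.

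The remaining members are used as protein markers of microglia. Tmem119, a transmembrane protein on chromosome 5 (113793729 to 113800516, minus strand), had 5.28 ± 1.09 RPKM. Cd68, a glycoprotein of lysosome membranes on chromosome 11 (69664213 to 69666153, minus strand), had 3.24 ± 0.584 RPKM. Aif1, which encodes the actin-binding protein Iba1, lies on chromosome 17 (35170991 to 35176068, minus strand) and had 2.32 ± 0.384 RPKM. In percentiles of the genes past the filter, the 9 genes spanned from the 32.2th (Trem2) to the 84.5th (Csf1r).

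Neighbors in the order of levels differed to unequal degrees. Cx3cr1 was above Tmem119, and Aif1 above Trem2, in 20 of 20 samples. Tyrobp was above Cx3cr1, Tmem119 above Siglech and Cd68 above Aif1 in 19 of 20, P2ry12 above Tyrobp in 18 of 20 and Siglech above Cd68 in 16 of 20. Csf1r was above P2ry12 in 10 of 20 samples, so that these genes had no fixed order. Over all samples, the ranges of every neighboring pair overlapped.

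Some reads could belong to neighbors, since the strand setting of the counting is not stated. Of the exon bases of Csf1r in a later annotation of the same build, 16.4% also lie under exons of Hmgxb3, a gene on the opposite strand. For P2ry12, which lies within Med12l on the opposite strand, the shared part was 0.353%, and for the other 7 members it was 0. The span of Cx3cr1 holds or touches 5 other genes (Wdr48, Gorasp1, Ttc21a, Csrnp1 and Xirp1) that share none of its exon bases.

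Promoters are shown for the members that carry a short purine-rich motif, since many genes of macrophages and microglia hold sites of the ETS factor PU.1 (gene Spi1) near their start. RefSeq promoter windows on GRCm38.p6, from 250 bases before to 50 after the start, were at hand for 6 of the 9 members. The letters GAGGAA, searched on both strands, were in 4 of the 6 windows, and in 28.3% of the 32851 windows of the table. The longer form GAGGAAGT, which contains the shorter one, was in 0 of 6 (3.2% of all windows), and TATAAA also in 0 of 6 (13.6%). Capitals mark GAGGAA or its reverse complement, and each sequence runs 5′ to 3′ on the gene's strand.
Trem2 (chr17:48346151-48346450, plus strand): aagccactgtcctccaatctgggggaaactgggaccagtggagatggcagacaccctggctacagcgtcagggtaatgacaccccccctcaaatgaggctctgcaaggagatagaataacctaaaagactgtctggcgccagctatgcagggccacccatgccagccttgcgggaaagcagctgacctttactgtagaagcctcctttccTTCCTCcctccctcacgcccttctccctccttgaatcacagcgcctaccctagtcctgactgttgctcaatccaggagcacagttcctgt
Siglech (chr7:55767934-55768233, plus strand): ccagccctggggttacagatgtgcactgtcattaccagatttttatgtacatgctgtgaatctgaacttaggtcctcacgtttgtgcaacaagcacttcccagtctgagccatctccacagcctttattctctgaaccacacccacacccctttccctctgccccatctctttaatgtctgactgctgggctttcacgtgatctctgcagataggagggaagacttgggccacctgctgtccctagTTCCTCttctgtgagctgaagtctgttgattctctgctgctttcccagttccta
Aif1 (chr17:35176003-35176302, minus strand): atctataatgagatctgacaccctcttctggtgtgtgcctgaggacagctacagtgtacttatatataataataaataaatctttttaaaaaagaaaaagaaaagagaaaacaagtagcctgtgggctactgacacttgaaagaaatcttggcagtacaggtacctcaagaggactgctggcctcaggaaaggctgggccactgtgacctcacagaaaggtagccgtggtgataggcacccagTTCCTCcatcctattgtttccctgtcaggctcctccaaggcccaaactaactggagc
Cd68 (chr11:69666121-69666420, minus strand): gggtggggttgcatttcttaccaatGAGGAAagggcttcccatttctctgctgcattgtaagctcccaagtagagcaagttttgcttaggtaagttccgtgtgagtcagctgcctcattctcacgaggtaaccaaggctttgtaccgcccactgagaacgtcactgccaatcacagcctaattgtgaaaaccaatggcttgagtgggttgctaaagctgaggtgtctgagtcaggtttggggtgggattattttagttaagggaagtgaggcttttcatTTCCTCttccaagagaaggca
In Trem2, Siglech and Aif1 the single match lies on the opposite strand, 40, 4 and 7 bases before the start. Cd68 had a match on the gene's strand 225 bases before the start and another on the opposite strand at base 30 after it. The windows of P2ry12 and Cx3cr1 held none of these letters. A match describes the letters in the window and is not evidence of a bound factor.

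Between samples the 9 genes varied by more than counting noise, to a degree that differed among them. Levels between samples are given as TMM-normalized CPM. Within groups the coefficient of variation was lowest for P2ry12 (9.41%) and highest for Tmem119 (19.9%). The variance within groups was 1.60 times the counting variance for Aif1, the member with the fewest counts (mean 108), and 34.7 times for Csf1r, the member with the most (mean 2311). For Aif1 counting noise was thus a large part of the spread, and for Csf1r a small one. The ratio of the highest to the lowest sample was 3.63 for Tmem119, 2.61 for Trem2 and 1.76 for Csf1r, and in these 3 genes nPM female 3 was the highest sample and nPM female 4 the lowest.

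**Figure D1:**
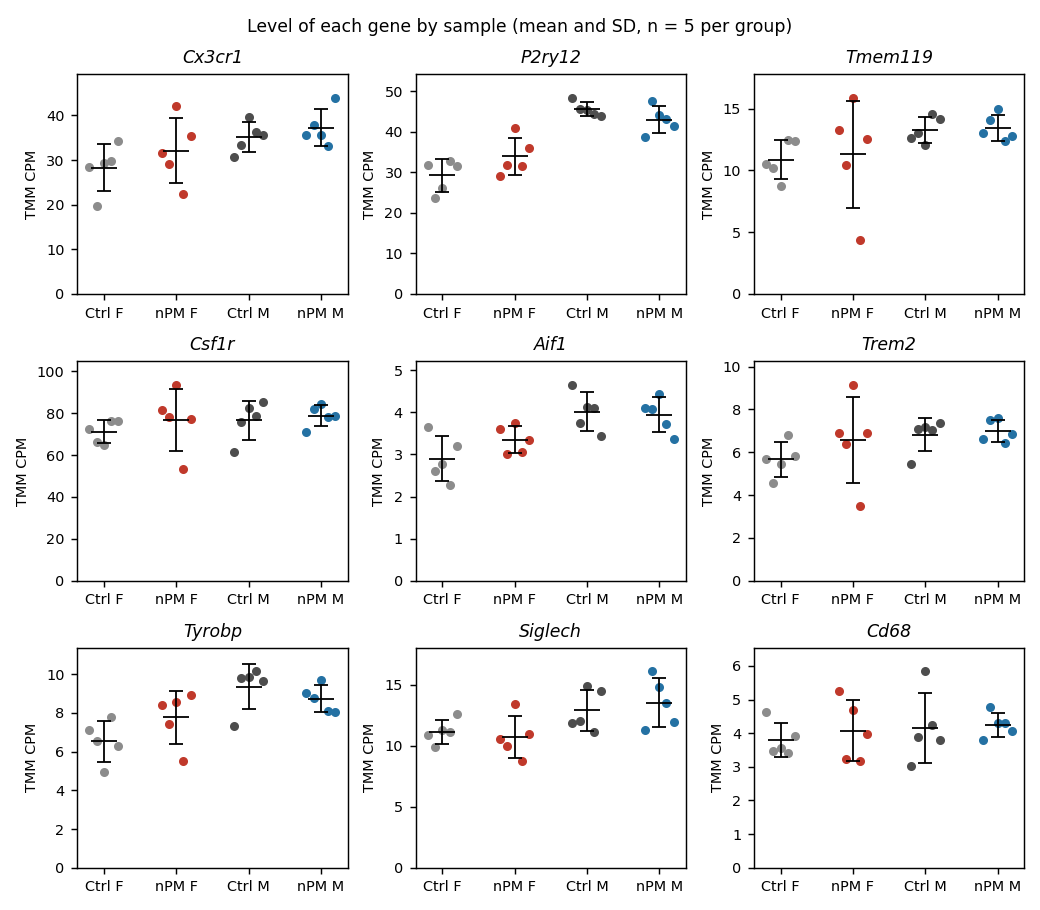
Level of each of the 9 genes in TMM-normalized CPM (vertical axes, from 0) for the 5 samples of each group: control (Ctrl) and nPM females (F) and males (M). Points are samples and bars the mean and SD. P2ry12 is at 43.9 to 48.4 CPM in control males and 23.8 to 32.8 in control females, and a single nPM female lies far below the rest for Tmem119 (4.38 CPM).

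Gestational nPM did not move any of the 9 genes past the threshold when both sexes were analyzed together. Of the 9 members, 0 passed p under 0.005 in limma-voom with sex as a covariate, against 0.141% of all genes tested, and 0 passed an unadjusted p under 0.05 (2.10%). The edgeR quasi-likelihood test and the DESeq2 Wald test also called 0 of 9 at either level. At an adjusted p under 0.05, limma-voom, edgeR and DESeq2 each called 0 of 19797 genes in this comparison, and limma-voom had 416 genes at an unadjusted p under 0.05. All 9 log2 fold changes were above 0, as were 47.0% of all genes, with a median of 0.07 beside -0.01 for all genes. In bulk tissue, a difference in the number of microglia and one in the RNA per microglial cell cannot be told apart.

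Among the receptors, Cx3cr1 had the largest log2 fold change, 0.13 (95% interval -0.07 to 0.34, limma-voom, n = 10 and 10, p = 0.185). Csf1r had 0.07 (-0.09 to 0.23) and P2ry12 0.05 (-0.10 to 0.21). Trem2 had 0.10 (-0.13 to 0.34), its adaptor Tyrobp 0.06 (-0.15 to 0.26) and Siglech 0.02 (-0.15 to 0.19). The markers Aif1 at 0.10 (-0.11 to 0.30), Cd68 at 0.08 (-0.15 to 0.32) and Tmem119 at 0.02 (-0.27 to 0.30) were of the same size. The 9 intervals all include 0, and their upper bounds lie between 0.19 and 0.34, so that larger log2 increases lay outside them. Without nPM female 3 the values were 0.08 for Cx3cr1, 0.04 for Trem2, 0.03 for Csf1r, 0.03 for Tyrobp, 0.06 for Aif1, 0.05 for Cd68 and 0.01 for P2ry12, and those of Tmem119 (-0.05) and Siglech (-0.02) were below 0. Without nPM female 4 they were 0.18 for Cx3cr1, 0.17 for Trem2, 0.12 for Csf1r, 0.12 for Tmem119, 0.09 for Tyrobp and 0.045 for Siglech. The adjusted p was 0.9998 for each of the 9 genes.

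In males, the levels of the 9 genes in nPM and control samples overlapped throughout. Of the 9 members, 0 passed p under 0.005 in limma-voom (0.207% of all genes) and 0 passed an unadjusted p under 0.05 (4.28%), with the same counts by edgeR and DESeq2. Log2 fold changes were above 0 for 6 of 9 genes (49.6% of all genes), with a median of 0.03. The smallest p belonged to P2ry12, at -0.09 (95% interval -0.23 to 0.06 in limma-voom, exact permutation p = 0.159). In CPM, P2ry12 was 48.4, 45.6, 45.5, 44.4 and 43.9 in control males and 38.8, 47.5, 44.1, 43.2 and 41.4 in nPM males. All control males were above the nPM mean of 43.0 CPM, and a single nPM male was above the control mean of 45.5 CPM.

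In females, 8 of the 9 genes had log2 fold changes above 0 (45.9% of all genes), with a median of 0.19 beside -0.01 for all genes, and none passed the test. By limma-voom, 0 of 9 passed p under 0.005 (0.0859% of all genes) and 0 passed an unadjusted p under 0.05 (2.00%), with the same counts by edgeR and DESeq2. P2ry12 had the smallest p, with a log2 fold change of 0.22 (95% interval -0.04 to 0.48 in limma-voom, exact permutation p = 0.127). Its CPM values were 31.8, 23.8, 26.2, 32.8 and 31.6 in control females and 29.1, 31.9, 40.9, 31.6 and 36.05 in nPM females. The upper 2 of the nPM females lay above all controls and the rest among them. Tyrobp followed with 0.27 (-0.08 to 0.62, exact permutation p = 0.175) and Aif1 with 0.25 (-0.11 to 0.60, exact permutation p = 0.143). Siglech was the only member below 0 in the weighted limma-voom fit, at -0.04 (-0.30 to 0.22). For Tmem119, at 0.03 (-0.54 to 0.60) in this fit, the unweighted mean of log2 CPM was lower in nPM females (3.38) than in control females (3.43).

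The values in females rested in part on the 2 libraries that stood apart. Tmem119 was 10.5, 10.2, 8.70, 12.5 and 12.4 CPM in control females and 13.3, 10.4, 15.9, 4.38 and 12.5 CPM in nPM females. The fourth nPM female was below every other sample and the third above every other sample of the series. For Trem2 the same pattern held, with 5.70, 4.55, 5.46, 6.79 and 5.83 CPM in control females and 6.91, 6.39, 9.16, 3.504 and 6.89 CPM in nPM females. Without nPM female 4 the log2 fold changes in females were 0.37 for Tyrobp, 0.37 for Trem2, 0.21 for Csf1r, 0.28 for Tmem119 and 0.30 for Cx3cr1. Of these, the first 3 passed an unadjusted p under 0.05 in limma-voom. Without nPM female 3 they were 0.07 for Trem2, 0.02 for Csf1r and -0.12 for Tmem119. No member passed p under 0.005 with either left out. The part of the low depth and the high mitochondrial ribosomal share of nPM female 4 in these values was not tested.

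Exact permutation tests within each sex, 5 samples against 5 with a smallest possible p of 0.00794, gave a smallest p of 0.127 for the 9 genes, for P2ry12 in females. For none of the 9 genes did the nPM and control samples of a sex fail to overlap, which 0.349% of all genes did in females and 0.662% in males.

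**Figure D2:**
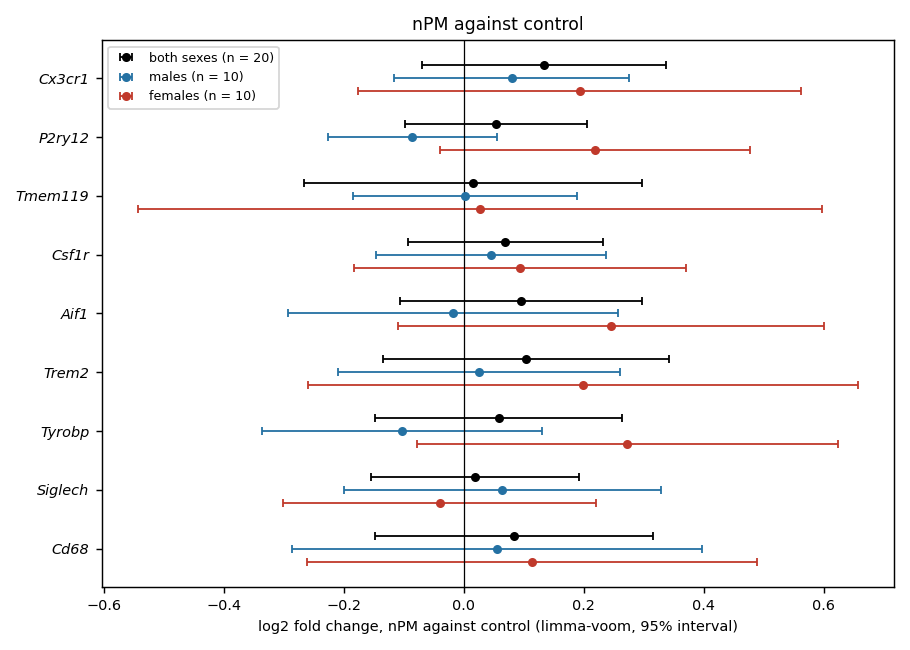
Log2 fold change of nPM against control for the 9 genes (horizontal axis) with 95% intervals from limma-voom, for both sexes (n = 20, sex as a covariate), males (n = 10) and females (n = 10). Each interval includes 0, and the widest is that of Tmem119 in females, from -0.54 to 0.60.

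The response to nPM was then compared between the sexes, as the effect in males less that in females. Of the 9 members, 0 passed p under 0.005 (0.217% of all genes) and 1 passed an unadjusted p under 0.05 (3.79%) in limma-voom, and edgeR and DESeq2 gave the same counts. This gene was P2ry12, at -0.30 on the log2 scale (95% interval -0.58 to -0.03, limma-voom adjusted p = 0.987). Tyrobp followed at -0.38 (-0.77 to 0.02). In this fit Siglech alone had a value above 0, at 0.10 (-0.25 to 0.46), which 52.5% of all genes had. The value of Tmem119 was -0.03 (-0.61 to 0.56), while the unweighted group means differed by 0.01 in males and -0.05 in females, which gives the opposite sign. No difference between the sexes in the response of the 9 genes passed the threshold of p under 0.005.

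Males had higher levels than females of several of the 9 genes, with P2ry12 in front. With exposure as a covariate, 9 of 9 log2 fold changes of males against females were above 0 (52.2% of all genes), with a median of 0.27 beside 0.02 for all genes. A one-sided shift was not particular to the 9 genes. Values above 0 were also found for 10 of 10 oligodendrocyte genes (median 0.28) and 22 of 24 general myeloid genes (median 0.23). At p under 0.005 in limma-voom, 3 of 9 were higher in males and 0 lower, while 13.9% of all genes were higher and 17.1% lower. At an adjusted p under 0.05, 5 of 9 were higher (18.8% of all genes, with 21.6% lower). With 31.1% of all genes past p under 0.005 in either direction, the count of 3 of 9 is near the background. Sex cannot be told apart from age, which did not overlap between the sexes, nor from the EdU injections of males.

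P2ry12 was higher in males by 0.50 on the log2 scale (95% interval 0.34 to 0.65, limma-voom, n = 10 and 10, p = 1.04e-06, adjusted p = 3.57e-05). Its mean was 45.5 ± 1.75 CPM in control males and 29.2 ± 3.99 in control females (SD, n = 5 each), and 43.0 ± 3.22 in nPM males and 33.9 ± 4.64 in nPM females. All control males were above all control females, which 8.49% of all genes showed (exact permutation test, n = 5 and 5, p = 0.00794, the smallest possible). Among nPM samples, 4 of 5 males were above all females and the groups overlapped (exact permutation test, p = 0.0159), whereas 4.83% of all genes had every nPM male above every nPM female. The log2 difference was 0.65 within controls (0.45 to 0.84) and 0.34 within nPM samples (0.15 to 0.54), and passed p under 0.005 in both and in each fit that left out 1 sample.

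Aif1 and Tyrobp also passed the threshold. Aif1 was 3.65, 2.60, 2.78, 2.28 and 3.20 CPM in control females and 3.60, 3.00, 3.75, 3.07 and 3.35 in nPM females. In control males it was 4.66, 3.75, 4.14, 4.10 and 3.44 CPM, and in nPM males 4.11, 4.07, 4.44, 3.73 and 3.36. Males were higher by 0.35 on the log2 scale (95% interval 0.14 to 0.55, limma-voom, n = 10 and 10, p = 0.00189, adjusted p = 0.00741), with some overlap in both exposure groups. Tyrobp was higher in males by 0.34 (0.13 to 0.55, limma-voom, n = 10 and 10, p = 0.00291, adjusted p = 0.0105). Its values were 7.31 to 10.1 CPM in control males and 4.93 to 7.76 in control females, and 8.05 to 9.70 in nPM males and 5.53 to 8.90 in nPM females. Within nPM samples alone neither passed the threshold, with log2 differences of 0.22 (-0.06 to 0.49) for Aif1 and 0.15 (-0.13 to 0.43) for Tyrobp.

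The call of Tyrobp was close to the threshold. It was lost without control female 2, 3 or 5, without control male 2, 3, 4 or 5, or without nPM female 4, with limma-voom p between 0.00511 and 0.00656. Without nPM female 3 the count of members past the threshold was 5 instead of 3, since Cx3cr1 and Siglech, with log2 differences of 0.33 and 0.30, then passed as well. Siglech also passed without control female 5, control male 2 or 4, or nPM male 1 or 5.

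The other 6 genes did not pass p under 0.005. Cx3cr1 had 0.27 on the log2 scale (95% interval 0.07 to 0.48, limma-voom adjusted p = 0.0310) and Siglech 0.26 (0.08 to 0.43, adjusted p = 0.0192), which puts both past an adjusted p under 0.05. Tmem119 had 0.30 (0.02 to 0.58, adjusted p = 0.0848) and Trem2 0.18 (-0.06 to 0.42) in the same fit. Cd68 at 0.08 (-0.16 to 0.31) and Csf1r at 0.08 (-0.09 to 0.24) had the smallest differences. Log2 differences above 0.31 for Cd68 and 0.24 for Csf1r lay outside their intervals. Without nPM female 4 the log2 differences were 0.18 for Tmem119, 0.10 for Trem2, 0.04 for Cd68 and 0.02 for Csf1r, and without nPM female 3 Csf1r had 0.12.

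The unequal sex difference of Csf1r and P2ry12 could be seen within single samples, in the order of their levels per length. This comparison was chosen after the values were seen and uses the same P2ry12 values as the sex difference above. Its p-values therefore add no support to that difference. The share of other gene pairs whose ratio does not overlap between the sexes was not computed. Csf1r was above P2ry12 in RPKM in 5 of 5 control females and 4 of 5 nPM females, but in 1 of 5 control males and 0 of 5 nPM males. The log2 ratio of Csf1r to P2ry12 was 0.35 ± 0.12 in control females and -0.20 ± 0.24 in control males, with no overlap (exact permutation test, n = 5 and 5, p = 0.00794, the smallest possible). In nPM samples it was 0.22 ± 0.27 in females and -0.07 ± 0.06 in males, and the single female below 0, nPM female 4, was below all males (exact permutation test, p = 0.0556). This ratio does not depend on the scaling between samples.

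**Figure D3:**
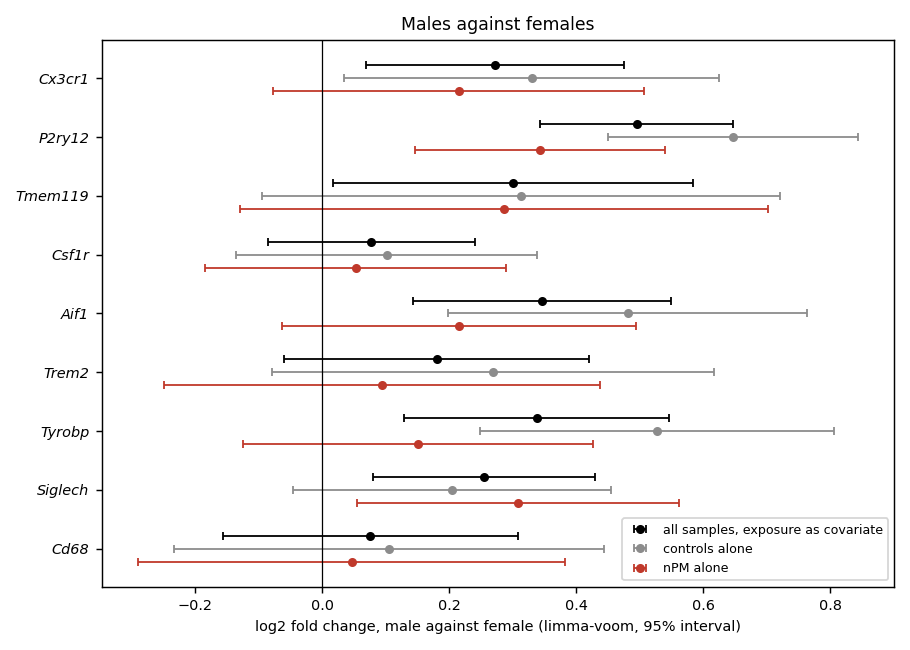
Log2 fold change of males against females for the 9 genes (horizontal axis) with 95% intervals from limma-voom, over all 20 samples with exposure as a covariate, within controls and within nPM samples. The interval of P2ry12 lies above 0 in all 3, while those of Csf1r, Trem2 and Cd68 include 0 in all 3.

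Markers of other brain cells also differed between the sexes. Of 10 genes of endothelial cells, 6 were lower in males at p under 0.005 in limma-voom: Pecam1 by -0.33 on the log2 scale, Flt1 by -0.64, Slco1a4 by -0.28, Cdh5 by -0.54, Abcb1a by -0.44 and Esam by -0.62. Of 10 astrocyte genes, 4 were higher: Aqp4 by 0.44, Gja1 by 0.29, Aldoc by 0.18 and S100b by 0.26. Opalin (0.57) and Ermn (0.41) were higher of 10 oligodendrocyte genes, Calb1 (0.45) of 10 genes of hippocampal fields, and Rbfox3 (-0.23) was lower of 10 neuronal genes. Over all genes tested, 13.9% were higher and 17.1% lower at this threshold. Calb1 and Rbfox3 went against most of their lists. Log2 differences were above 0 in 4 of 10 hippocampal field genes (median -0.14) and 8 of 10 neuronal genes (median 0.10). For astrocyte genes this was 7 of 10 (median 0.17), while their mean sum was 6270 CPM in control males and 6620 in control females. In nPM samples that sum was 6250 CPM in males and 6386 in females. Oligodendrocyte genes had log2 differences above 0 in 10 of 10 (median 0.28) and endothelial genes in 1 of 10 (median -0.30). For choroid plexus genes this was 10 of 10 (median 1.23), with 0 past p under 0.005 in limma-voom. Summed over each list, endothelial genes ranged from 172 to 215 CPM in males and from 215 to 307 in females, and oligodendrocyte genes from 2686 to 6225 and from 3272 to 4687. The part of such differences in cell makeup in the sex differences of the 9 genes was not tested.

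Most of the 9 genes varied together from sample to sample within groups. For the 36 pairs, log2 CPM deviations from the 4 group means were correlated over 20 samples, with 100000 permutations per pair and adjustment over the 36 pairs. The permutations moved deviations freely between groups and took no account of the 4 means removed. Group spreads were unequal, with an SD of log2 CPM for Tmem119 of 0.726 in nPM females and 0.114 in nPM males. The permutation p-values may therefore be too small. Pearson's r was above 0 in 36 of 36 pairs, with a median of 0.53 and a range from 0.08 to 0.93, and 21 pairs had an adjusted permutation p under 0.05. Trem2 took part in 7 of these, Cx3cr1, Csf1r and Siglech in 6 each, Tmem119 and Cd68 in 5 each, Tyrobp in 4, P2ry12 in 3 and Aif1 in 0 of its 8. All pairs share the depth and the makeup of each library, and TMM scaling applies 1 factor to all genes of a library. The share of such pairs among all genes was not computed, so the count of 21 cannot be called particular to the 9 genes.

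The tightest pair was the growth factor receptor Csf1r with Trem2, at r = 0.93 (rho = 0.85, permutation p = 1e-05, the smallest possible, adjusted p = 0.000120). Without the 2 samples farthest from the median of Csf1r, r was 0.84, and it was 0.96 in the 10 females and 0.91 in the 10 males. Trem2 with its adaptor Tyrobp had r = 0.75 (rho = 0.79, permutation p = 0.000230, adjusted p = 0.00103), with 0.66 without 2 samples, 0.74 in females and 0.88 in males. In males alone the second of these pairs did not pass an adjusted permutation p under 0.05, and control male 1 had the lowest value of the control males for both of its genes. That sample was also the lowest control male for Csf1r (61.4 CPM), and its part in the male r of either pair was not tested. Tmem119 with Trem2 had r = 0.90 (rho = 0.84, permutation p = 1e-05, adjusted p = 0.000120), which was 0.61 without 2 samples, 0.94 in females and 0.56 in males. For the lectin Siglech and Tyrobp, r was 0.34 (rho = 0.31, permutation p = 0.137, adjusted p = 0.183), and it was 0.23 without 2 samples.

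The number of correlated pairs rested on females, and among them on the same 2 libraries. In the 10 females alone 15 of 36 pairs passed, and in the 10 males alone 1, Csf1r with Trem2, with a median r of 0.28 and 25 of 36 values above 0. Without nPM female 3, 12 pairs passed, and without nPM female 4, 15. Without both, a setting chosen after the data were seen, 6 pairs passed, all of them among the 21, with a median r of 0.40 and 33 of 36 values above 0. Whether the low depth and high mitochondrial ribosomal share of nPM female 4 took part in the correlations was not tested.

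**Figure D4:**
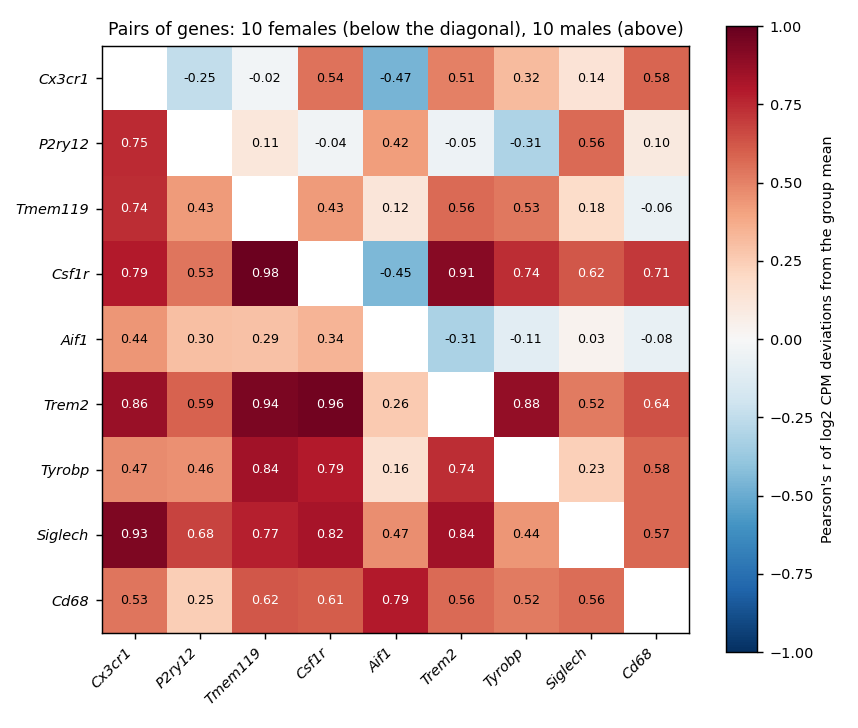
Pearson's r of log2 CPM deviations from group means for each pair of the 9 genes (color and printed value), over 10 females below the diagonal and 10 males above it. Values in females range from 0.16 to 0.98, and values in males from -0.47 to 0.91, with Csf1r and Trem2 at 0.96 and 0.91.

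Genes outside the 9 were ranked by Pearson's r, over the 20 samples, of their deviations from group means with the mean standardized deviation of the 9 genes. The 5 with the highest r were Unc93b1 (0.88), which carries Toll-like receptors to endosomes, C1qc (0.87), a chain of complement C1q, 2010001A14Rik (0.86), Usp20 (0.86), a deubiquitinase, and St6galnac6 (0.86), a sialyltransferase. Of these, Unc93b1 and C1qc were in the list of general myeloid genes, and the other 3 were in none of the lists. Without nPM females 3 and 4, Cd300c2 (0.81), Pld4 (0.79), Rgs14 (0.78) and Gm25099 (0.78) were among the 5 highest, and Unc93b1 had rank 11 and C1qc rank 25. By list, the median r was 0.52 for 24 general myeloid genes, 0.44 for 20 other homeostatic microglia genes and 0.33 for 18 activation genes, beside -0.01 for all genes (quartiles -0.30 and 0.30). It was also 0.50 for 10 oligodendrocyte genes and 0.38 for 10 astrocyte genes, and -0.16 for 10 neuronal genes. Choroid plexus genes, whose sum ranged from 42.6 to 8588 CPM between samples, had a median r of 0.21. Without the 2 females it was 0.42, 0.40 and 0.38 for the first 3 lists, 0.46 for oligodendrocytes, 0.06 for astrocytes, -0.31 for neurons and 0.39 for choroid plexus. These values describe the samples and carry no test, since all genes of a library share its tissue makeup and quality.

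**Figure D5:**
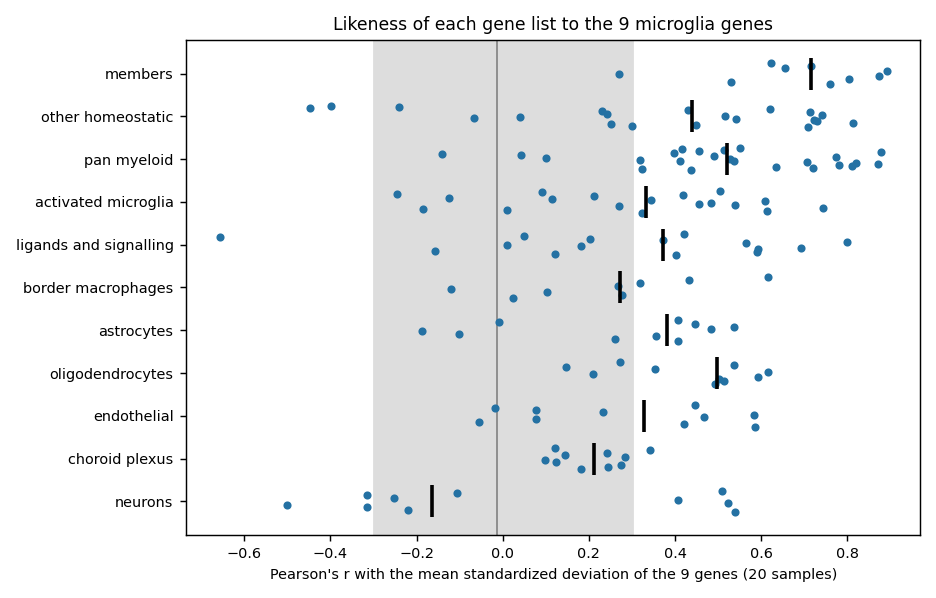
Pearson's r of each gene with the mean standardized deviation of the 9 genes over 20 samples (horizontal axis), by gene list, with list medians as vertical bars. The grey band spans the quartiles of all genes, from -0.30 to 0.30, and each member is compared with the mean of the other members. Medians lie at 0.52 for general myeloid, 0.50 for oligodendrocyte and -0.16 for neuronal genes.

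In the wider set of microglial genes no member passed the threshold with nPM. Of 20 other homeostatic genes, 24 general myeloid genes, 15 measured ligands and signaling partners, and 18 measured activation genes, 0 passed p under 0.005 in limma-voom in both sexes together, in males, in females or in the difference between the sexes. Over all genes these shares were 0.141%, 0.207%, 0.0859% and 0.217%, so that hardly any call would be met in lists of this size. Bin1 (51.3 RPKM) was the most abundant of the other homeostatic genes, and Ctss (39.2) and Lgmn (34.9) of the myeloid genes, Apoe (334) and Clu (150.2) of the ligands and partners, and Fth1 (577) and Ctsb (63.9) of the activation genes. Many of these abundant genes are also made by other brain cells.

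Among the other homeostatic genes the smallest p in both sexes together was that of Gpr34 (0.16, limma-voom, n = 10 and 10, p = 0.0562), a lysophospholipid receptor, and in males that of Mef2c (-0.61, 95% interval -1.23 to 0.02), a transcription factor that neurons use as well. In females 14 of 20 had log2 fold changes above 0 and in males 5 of 20, with medians of 0.13 and -0.06. As for the 9 genes, the difference between the sexes passed the threshold for 0 of 20.

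Among general myeloid genes, Itgam, the integrin subunit CD11b, had the smallest p in both sexes together (0.26 on the log2 scale, limma-voom, n = 10 and 10, p = 0.00987) and in females (0.39, 95% interval 0.06 to 0.71). Lgmn had the smallest p in males (-0.21, 95% interval -0.37 to -0.04) and Cd53 in the difference between the sexes (-0.39, -0.73 to -0.05) in the limma-voom fits. Among activation genes, Timp2 had the smallest p in both sexes together (-0.33, limma-voom, n = 10 and 10, p = 0.0125) and in males (-0.38, 95% interval -0.73 to -0.04). Clec7a, a beta-glucan receptor, had the smallest in females (1.31, 0.37 to 2.26) and in the difference (-1.28, -2.46 to -0.10). Clec7a was near the floor, at 3 to 25 counts per sample, with control females 2 and 4 at 3 counts. Among ligands and partners, the smallest p values in limma-voom were those of Card9 in both sexes (0.25), Syk in males (0.32, 95% interval -0.04 to 0.69) and Pecam1 in females (0.23, 0.02 to 0.45) and in the difference (-0.23, -0.53 to 0.08). None of these values passed the threshold, and each adjusted p was above 0.9.

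Between the sexes, the other homeostatic genes and the ligands and partners held calls in both directions. The general myeloid and activation lists held only genes higher in males. Of all genes tested, 13.9% were higher and 17.1% lower in males at p under 0.005. Log2 differences were above 0 in 17 of 20 other homeostatic genes, 22 of 24 general myeloid genes, 15 of 18 activation genes and 5 of 15 ligands and partners. Of the other homeostatic genes, 6 of 20 were higher in males at p under 0.005 in limma-voom, among them Tgfbr1 (0.27 on the log2 scale), Mef2a (0.21), P2ry13 (0.38) and Gpr34 (0.27), and Mertk (-0.53), a receptor kinase for engulfment that astrocytes use as well, was lower. Of the general myeloid genes, 5 of 24 were higher, namely Itgam (0.48), Ly86 (0.51), Cd53 (0.39), Lgmn (0.27) and Ctss (0.25), and 0 lower. Ctsb (0.24), Timp2 (0.46) and B2m (0.26) were higher of 18 activation genes. Apoe (0.38) and Adam10 (0.15) were higher, and Tgfb1 (-0.55), Inpp5d (-0.29) and Pecam1 (-0.33) lower, of 15 ligands and partners. With 31.1% of all genes past the threshold, the counts of 7 of 20, 5 of 24, 3 of 18 and 5 of 15 in either direction are no result about the lists. The purine receptor P2ry13, a close relative and chromosomal neighbor of P2ry12, was higher in males like P2ry12.

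Genes of other myeloid cells were mostly at low levels, but not all of them were below the 9 genes. Stab1 (1.52 RPKM) and Mrc1 (1.06 RPKM) were the most abundant of 10 genes of border macrophages, 8 of which passed the filter. For this list 0 genes passed p under 0.005 in limma-voom in any comparison, and the smallest p in males and in the difference between the sexes was that of Mrc1 (-0.61, 95% interval -1.12 to -0.09, and -0.90, -1.76 to -0.05). Of 11 genes of blood leukocytes, 2 passed the filter, Lyz2 and Ccr2, and 5 were at or under 3 counts in every sample. Lyz2 had a mean of 4.96 RPKM, above Siglech (3.56), Cd68 (3.24), Aif1 (2.32) and Trem2 (1.32), and Ccr2 had 0.0417. The sum of the 11 genes was between 2.41 and 11.95 CPM. Brains had been perfused with saline, and the sum of 5 red blood cell genes was between 1.25 and 56.9 CPM. Their part in the levels of the 9 genes was not tested. With nPM, 0 genes of the astrocyte, oligodendrocyte, endothelial, neuronal and hippocampal field lists passed p under 0.005 in any fit by limma-voom. Their smallest p values in both sexes together were those of Gjb6 (-0.18 on the log2 scale, limma-voom, n = 10 and 10, p = 0.0235), Ermn (0.09, p = 0.288), Flt1 (0.18, p = 0.0293), Syt1 (-0.14, p = 0.132) and C1ql2 (0.28, p = 0.0475).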

How the data were processed

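RNA-seq of 20 mouse hippocampi was analyzed, with sex, exposure and replicate number taken from the sample labels. The authors depleted ribosomal RNA, checked reads with FastQC, trimmed adapters with Trimmomatic where needed, aligned to mm10 with HISAT2 and counted reads per gene with featureCounts 1.5.0-p3 on Gencode M11. The files deposited by the authors hold raw counts of 48709 genes as whole numbers, along with gene lengths in bases. The authors also deposited the mean RPKM of each gene, which differed from the mean of RPKM values recomputed here by at most 4.37e-11. The strand setting and the rule for reads with several alignments are not given in the sources used here.

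TMM factors (edgeR 4.0.16) and limma-voom (limma 3.58.1, R 4.3.3, offset 0.5 counts) were applied to the genes kept by filterByExpr over the 4 groups (minimum count 10, minimum total 15). Fits were nPM with sex as a covariate, nPM in males, nPM in females, the difference between the sexes, and males against females. Genes were called at p under 0.005, the level used in the study, beside a Benjamini-Hochberg adjusted p under 0.05 over all genes tested. Single genes were tested by two-sided exact permutation tests, and pairs of genes by 100000 permutations (20000 where a sample was left out). Alternatives were RLE scaling, no filter, the Wald test of DESeq2 1.42.0, the quasi-likelihood test of edgeR, sample quality weights, age, a replicate block, 1 fit of the 4 groups and each sample left out. Gene overlaps used the exons of Gencode M21 on the same build. The promoter of Csf1r and some genes that the rule on named genes takes are not reported here. Scripts were checked on simulated data. Tables and figures used Python 3.11.15 and matplotlib 3.10.9. Counts limit low genes most, and a count of 0 allows up to 3. Nothing states that the samples of a group came from separate litters, so p-values measure the spread between these samples.

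The members and the gene lists were chosen with earlier results of these data known. Named beside the 9 members were, of each microglial list, the genes past p under 0.005, the gene with the smallest p in each nPM fit, the 2 genes with the highest mean RPKM, and the 5 genes most like the members. Of lists for other cells, only genes that stand beside a result were named. The log2 ratio of Csf1r to P2ry12 was chosen after the values were seen.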

Additional observations from a re-analysis of the deposited data

Results flagged for a closer look

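Of 36 sets of 5 samples, 1 for each of the 9 genes in each group, 2 held a sample far from the others, where chance flags about 1 in 20. Both concern control male 1, which was the lowest control male for Trem2 and for its adaptor Tyrobp. Without being flagged, it was also the lowest control male for Csf1r (61.4 CPM), Cx3cr1 (30.7 CPM) and Cd68 (3.02 CPM). For Tmem119 and Siglech it lay within the range of the other control males, and for Aif1 it was the highest sample (4.66 CPM). Trem2 was 2.45 on the log2 CPM scale in this sample, or 5.44 CPM, while the other control males were at 7.05 to 7.37 CPM, so that the gap was 0.853 of the range of the group. Tyrobp was 2.87 on the log2 CPM scale, or 7.31 CPM, beside 9.64 to 10.1 CPM in the others, with a gap of 0.845 of the range. The same sample had the lowest sum of oligodendrocyte genes (2686 CPM), the lowest sum of hippocampal field genes (1003 CPM) and the highest sum of neuronal genes (8829 CPM) of the 20 samples, whereas for P2ry12 it was the highest sample, at 48.4 CPM. The part of such a difference in tissue makeup in its Trem2 and Tyrobp levels was not tested. Without control male 1, the log2 fold changes of nPM in males were -0.05 for Trem2 and -0.18 for Tyrobp, neither past p under 0.05.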

How the results depend on the processing

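With nPM, the count of members past p under 0.005 was 0 in every fit under each alternative run and with each sample left out. The count of 3 members higher in males was 1 in nPM samples alone and 2 to 5 with each sample left out, and the count of 5 at an adjusted p under 0.05 was 3 in controls alone, 1 in nPM samples alone and 4 to 6 with each sample left out. The 21 correlated pairs were 1 in males alone, 6 without nPM females 3 and 4 (added after the data were seen), and 12 to 23 with each sample left out. Of 333 log2 fold changes of members under other settings, 325 kept their direction and side of the threshold. The direction turned in 3: in males with sample quality weights, 0.021 for Aif1 and -0.016 for Trem2, and in females with age as a covariate, -0.015 for Tmem119. Siglech passed p under 0.005 between the sexes with edgeR, DESeq2 and sample weights. With each sample left out, 38 of 720 values turned, all of them near 0 in the full data and below the threshold. In both sexes Tmem119 ranged from -0.048 to 0.12 and Siglech from -0.020 to 0.047. In males the ranges were -0.048 to 0.036 for Tmem119, -0.031 to 0.086 for Csf1r, -0.078 to 0.032 for Aif1, -0.046 to 0.057 for Trem2, -0.0057 to 0.12 for Siglech and -0.036 to 0.17 for Cd68. In females they were -0.12 to 0.28 for Tmem119 and -0.13 to 0.018 for Siglech, and in the difference between the sexes -0.28 to 0.11 for Tmem119, -0.17 to 0.016 for Csf1r and -0.15 to 0.057 for Cd68. The cause was not tested. Over all genes, the 28 past p under 0.005 in both sexes were 71 without a filter, 43 with DESeq2 and 53 with sample weights. The 41 in males were 132 without a filter and 113 with DESeq2, the 17 in females were 89, 28 with edgeR, 55 with DESeq2 and 41 with weights, and the 43 in the difference were 149, 66 with edgeR and 89 with DESeq2. Between the sexes, 6147 genes passed over all samples and 2438 in nPM samples alone. Replicate numbers showed no pairing of the samples by correlation. Same-numbered control and nPM samples deviated from their group means with r between -0.36 and 0.16, over 0.1 in 3 of 10 pairs. Of the control samples, 0 of 10 correlated best with their own number. A pairing with a small effect could not be seen in this way. With the replicate number as a block, 0 members passed with nPM, and over all genes 20 passed in both sexes, 35 in males, 21 in females and 43 in the difference. Depth limits Aif1 and Cd68 most, with 56 to 157 and 58 to 162 counts per sample.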
